A study of Mus musculus with 4 samples.

Results

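Autophagy is the pathway by which cells enclose cytoplasm, damaged organelles or microbes in a membrane-bound vesicle, the autophagosome, and deliver them to lysosomes. A kinase complex starts the process, a lipid kinase complex marks the membrane with phosphatidylinositol 3-phosphate, lipid carriers make the membrane grow, and a ubiquitin-like conjugation system attaches Atg8 proteins to it, where cargo receptors bind them. In macrophages this machinery is known for clearing intracellular bacteria and for limiting inflammasome activity, and its conjugation part also serves phagocytosis. The contacts of 36 autophagy machinery gene promoters in macrophage chromatin are described here. The genes were taken by name, and an interaction was counted for a gene where either of its bins held an annotated start of a protein-coding transcript of that gene (TSS). By this rule 766 of the 237102 listed interactions belonged to these 36 of 20720 autosomal protein-coding genes, and no interaction joined a pair of the 36.

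Bone marrow-derived macrophages (BMDMs) of C57BL/6J mice, grown from marrow with M-CSF for 7 days, were given 20 ng/mL IL-4, a cytokine of alternative macrophage activation, for 24 h (2 samples) or left untreated as the basal group (2 samples). Both groups carry the same unmodified genome. The labels give neither age nor sex, but the study's methods state an age range and that every experiment used female mice. HiChIP joins DNA ends that lie close together in fixed nuclei and enriches them with an antibody, here against H3K4me3, which marks active promoters. The deposited list gives, for pairs of 5-kb bins on the 19 autosomes, 1 count of read pairs observed over all 4 samples and 1 count expected by the authors' model of distance, sequence and enrichment. IL-4-treated and basal macrophages were therefore not compared, replicate error is lacking and per-sample depth is unknown. Values are given with a 95% interval from counting alone (exact Poisson for a ratio of observed to expected, Wilson for a share). A pair could be listed only where at least 1 bin held an H3K4me3 peak, so a gene without the mark in these cells could not anchor an interaction. The label of the cells was checked on marker genes. An interaction was found at 63.2% of all protein-coding genes (median 2) and at 7 of 8 macrophage markers. The latter had a median of 10.5, with Mertk at 42, Cd68 at 4, Itgam at 1 and Cx3cr1 at 0. Of 4 markers each, 2 T cell (median 1), 2 B cell (0.5), 3 neutrophil (1.5), 2 stromal (2) and 2 hepatocyte markers (0.5) had one. Of these 20, only Pecam1, an endothelial and leukocyte adhesion gene listed as stromal, passed 4, with 26. All macrophage markers except Cd68, Itgam and Cx3cr1 passed 4. With so few markers per type, having an interaction does not by itself tell the types apart.

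The letters at the starts of these genes were read for sites of factors known to act on autophagy or macrophage genes. RefSeq promoters (GRCm38, 250 bases before to 50 after the start) were found within 500 bp of the annotated start for 28 of the 36 genes. The E-box CACGTG, bound by the lysosomal and autophagy regulators TFEB and TFE3, lay in the promoters of Atg3 and Atg5, which was 7.14% of the 28 against 8.59% of 13846 promoters. The longer TFE element TCACGTGA, which contains the E-box, lay in Atg3 alone (3.57% against 1.30%). The antioxidant element TGACNNNGC of NRF2 lay in Atg13, Map1lc3b and Ulk2 (10.7% against 13.8%). The palindromic NRF1 site lay in Atg3, Atg4d, Map1lc3b and Wipi2 (14.3% against 7.69%), a difference that rests on 4 promoters. The AP-1 site TGANTCA and the PU.1 core GAGGAAGT were found in none of the 28 windows, against 6.53% and 3.33% of all promoters. All motifs were read on both strands, and a match is a run of letters and not a measured site. The promoters of 4 well-connected members that hold such matches are shown, with every match in capitals. That of Atg3 (chr16:45158579-45158878, plus strand) holds an NRF1 site, an E-box and a TFE element in that order, that of Atg5 (chr10:44268089-44268388, plus strand) an E-box, that of Map1lc3b (chr8:121590188-121590487, plus strand) an NRF1 site and an antioxidant element, and that of Atg13 (chr2:91710543-91710842, minus strand) an antioxidant element read on its other strand.
Atg3: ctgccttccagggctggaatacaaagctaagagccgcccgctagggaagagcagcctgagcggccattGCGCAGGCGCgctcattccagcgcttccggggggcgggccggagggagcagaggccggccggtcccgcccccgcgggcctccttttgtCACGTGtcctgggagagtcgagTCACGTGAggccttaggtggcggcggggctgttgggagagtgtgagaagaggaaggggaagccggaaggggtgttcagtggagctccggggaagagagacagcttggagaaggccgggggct
Atg5: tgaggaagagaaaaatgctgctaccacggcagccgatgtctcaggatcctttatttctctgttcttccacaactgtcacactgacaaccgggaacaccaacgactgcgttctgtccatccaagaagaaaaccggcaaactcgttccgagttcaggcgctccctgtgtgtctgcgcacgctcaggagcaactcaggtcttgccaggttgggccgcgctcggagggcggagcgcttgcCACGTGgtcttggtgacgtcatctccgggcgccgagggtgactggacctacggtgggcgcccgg
Map1lc3b: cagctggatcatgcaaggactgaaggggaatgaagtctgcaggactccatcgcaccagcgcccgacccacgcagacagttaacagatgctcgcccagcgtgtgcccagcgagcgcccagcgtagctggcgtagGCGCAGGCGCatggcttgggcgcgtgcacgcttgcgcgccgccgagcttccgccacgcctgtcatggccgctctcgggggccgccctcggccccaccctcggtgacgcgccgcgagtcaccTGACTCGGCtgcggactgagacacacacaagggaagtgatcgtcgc
Atg13: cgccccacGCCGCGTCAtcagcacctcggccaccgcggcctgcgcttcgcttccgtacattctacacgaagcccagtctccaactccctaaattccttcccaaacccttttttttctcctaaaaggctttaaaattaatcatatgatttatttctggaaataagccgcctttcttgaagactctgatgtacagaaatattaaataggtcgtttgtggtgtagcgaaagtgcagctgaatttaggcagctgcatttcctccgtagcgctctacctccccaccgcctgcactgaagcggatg
The median member promoter held 20 CpG dinucleotides in 300 bases and 61.7% G and C, against 16 and 58.3% over all promoters.

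Every member promoter had at least 1 interaction (36 of 36, 100%, interval from 90.4%), where 63.2% of all protein-coding genes did. The members were chosen by name, with earlier results of these data known, and were not drawn at random. The interval therefore does not measure how they differ from other genes, and the difference was not tested. The median was 14.5 interactions per member, with quartiles of 9 and 31.5, against a median of 2 over all genes and 7 over the genes with any interaction. The mean was 21.3 ± 19.5 (SD over 36 genes) for the members and 8.79 ± 15.5 over all 20720 genes. At least 30 interactions were found at 10 of the 36 members, against 8.81% of all genes, and 23 members (63.9%) lay above 11, the upper quartile of all genes. The median number of other genes starting within 500 kb was 13 for members and 16 for all genes. The interactions were unevenly spread: Atg16l1 (78), Atg5 (67), Map1lc3a (62), Atg3 (54) and Pik3r4 (45) together held 306 of the 766 (39.9%), whereas Ulk1, Pik3c3, Ambra1 and Wipi2 had 1 each. The promoter bins of 8 members also held a TSS of another protein-coding gene (Atg13 with Harbi1, Atg2b with Gskip, Atg9a with Ankzf1, Atg9b with Abcb8, Atg3 with Slc35a5, Atg4b with Thap4, Atg12 with Ap3s1 and Nbr1 with Brca1), so the 202 interactions at those shared bins cannot be assigned to either gene.

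**Figure D1:**
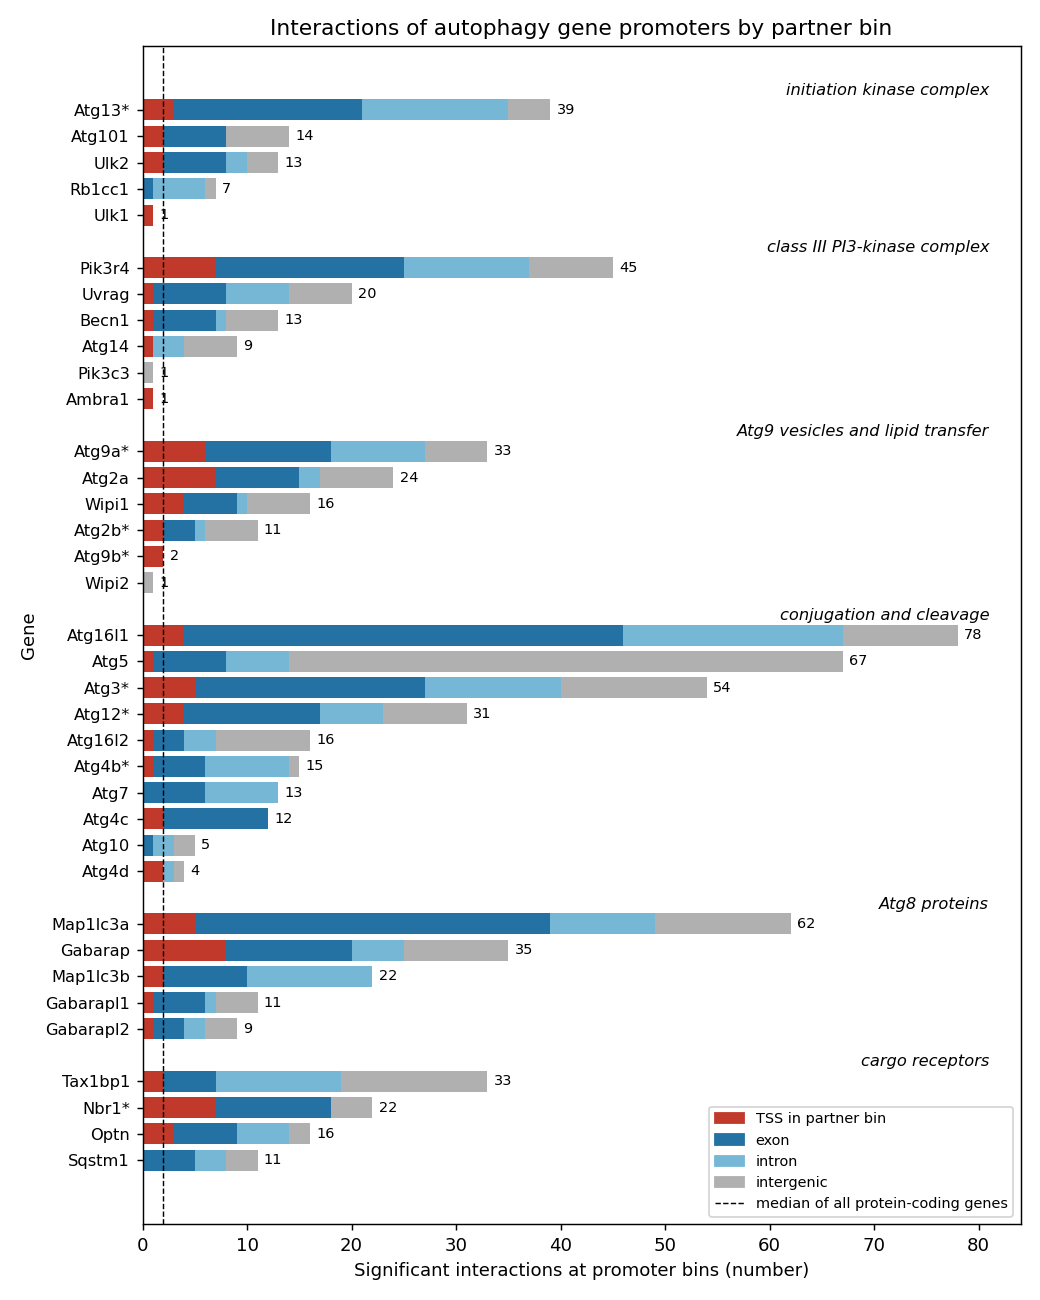
Bars give the number of significant interactions at the promoter bins of each of the 36 members, grouped by role and coloured by what the partner bin holds, and a star marks a promoter bin shared with another gene. The dashed line is the median of 2 over all protein-coding genes, and 31 of the 36 bars reach past it.

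The listed contacts of the members spanned 10 to 1000 kb, with a median of 220 kb (200 to 245) and quartiles of 90 and 469 kb, against a median of 190 kb over all 148313 interactions with a promoter. The median observed count was 34 in both sets. Observed over expected had a median of 2.94 (2.84 to 3.01) for members and 2.99 for all promoter interactions. A ratio of at least 4 was reached by 166 member interactions (21.7%, 18.9 to 24.7%), against 23.4% of promoter interactions and 27.0% of the whole list. Contacts over 500 kb were 177 of the 766 (23.1%, 20.3 to 26.2%), against 16.7% of promoter interactions and 15.6% of the list. Of these, 38 belonged to Atg5 and 14 to Optn. Without Atg5 the share was 139 of 699 (19.9%). Within bands of equal distance the ratios were close to those of all promoters, with a median of 2.48 against 2.53 at 10 to 100 kb, 2.77 against 2.79 at 100 to 200 kb, 3.05 against 3.20 at 200 to 500 kb and 4.02 against 4.02 at 500 to 1000 kb. Neighbouring bins are not independent, and none of these differences was tested.

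**Figure D2:**
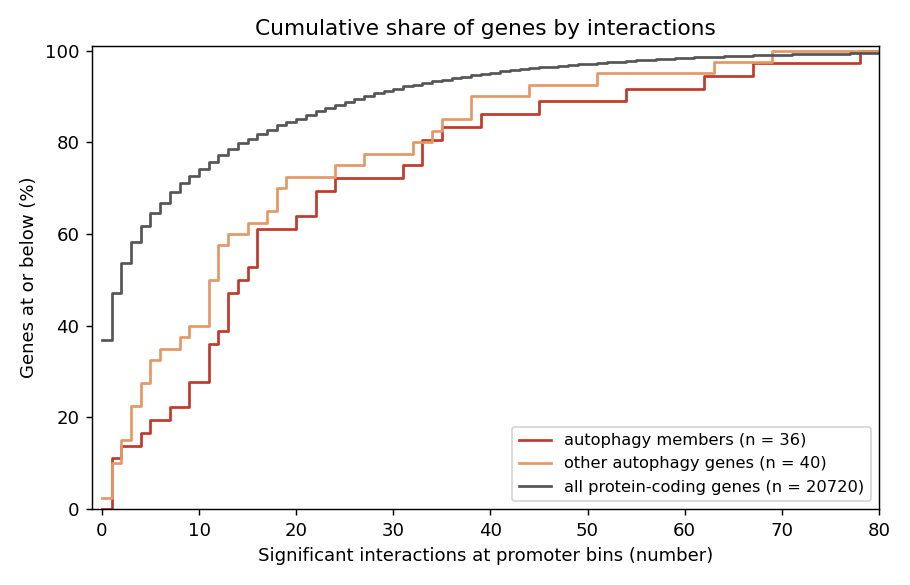
The cumulative percentage of genes (vertical axis) with at most the given number of significant interactions at their promoter bins (horizontal axis) is drawn for the 36 members, 40 other autophagy genes and all 20720 protein-coding genes. The line of the members starts at 0% and that of all genes at 36.8%, and the medians are 14.5, 11.5 and 2.

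The initiation kinase complex had a median of 13 interactions over 5 genes, with a range of 1 to 39. Atg13, the scaffold that links the kinases to their partners, led with 39 at a bin shared with Harbi1 (chr2:91674618-91710576, minus strand). Of the Atg13 contacts, 3 had the highest counts of any member. The bins 10 and 15 kb into its own gene had 810 and 802 observed counts (ratios 5.61 and 4.75, intervals 5.23 to 6.01 and 4.43 to 5.09), and the bin 10 kb upstream, in an exon of Harbi1, had 695 (ratio 4.17, 3.87 to 4.49). A further 18 of its partner bins lay in the body of Ambra1, the neighbouring gene and itself a member, 25 to 205 kb upstream. Ambra1, a regulator of the Beclin 1 complex, had only a contact from an internal start bin to the TSS of Dgkz 195 kb away, with 20 counts (ratio 2.25), and 0 at its outermost start. Atg101, the subunit that stabilises Atg13, had 14 interactions. Of these, 6 lay within 100 kb, and 8 lay 770 to 870 kb downstream around Eif4b, a translation initiation factor gene, and its neighbours. Its bin at 815 kb in an Eif4b exon had 38 counts against 3.42 expected (ratio 11.1, 7.86 to 15.3). The kinase gene Ulk2 had 13, among them 3 in Ncor1, a nuclear corepressor gene 490 to 545 kb upstream, while the kinase gene Ulk1 had only a contact with the Pitpnb TSS at 520 kb (16 counts, ratio 2.75). All 7 interactions of Rb1cc1, the large scaffold of the complex, lay 815 to 945 kb downstream, 6 of them in Pcmtd1, with 9 to 17 counts each. When a TSS up to 2500 bp outside a bin counted, Rb1cc1 had 20, and at a false discovery rate under 1e-06 it had 0.

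The class III PI3-kinase complex ranged from 1 to 45 interactions, with a median of 11 over 6 genes. Pik3r4, the regulatory subunit Vps15, had 45, of which 40 lay upstream (chr9:105643030-105687657, plus strand). Its partner bins overlapped Atp2c1, a Golgi calcium pump gene, 18 times at 120 to 240 kb, and Nek11 9 times at 245 to 375 kb. The bin with the TSSs of Aste1 and Nek11, 245 kb away, had 144 counts (ratio 5.91), and the TSS of the mitochondrial ribosomal protein gene Mrpl3, 590 kb away, had 26 against 2.72 expected (ratio 9.57, 6.25 to 14.0). A bin of its own exons, 10 kb downstream, had 545 counts (ratio 3.34, 3.07 to 3.63). Uvrag, a subunit of the complex that acts on endosomes, had 20, and 10 of these lay in its own long gene body, the nearest with 572 counts (ratio 2.38, 2.19 to 2.59). Becn1, the scaffold Beclin 1, had 13, among them the Aarsd1 TSS 115 kb upstream (62 counts, ratio 4.30). Atg14, which directs the complex to forming autophagosomes, had 9, and 5 of them lay 790 to 925 kb upstream near Tmem260. The bin of its outermost start had 1 of the 9, and an inner start bin had the other 8. Pik3c3, the lipid kinase Vps34 itself, had only an intergenic contact 235 kb downstream (30 counts, ratio 3.28) in a region with no other gene start within 500 kb.

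Among the genes of Atg9 vesicles and lipid transfer (6 genes, median 13.5), Atg9a, the membrane-spanning lipid scramblase, had 33 interactions at a bin shared with Ankzf1. Atg9a lies in a gene-dense stretch of chromosome 1 (chr1:75180860-75192196, minus strand), and 17 of its interactions were within 100 kb. The best-read bins held the TSS of Abcb6 10 kb away (578 counts, ratio 2.27, 2.09 to 2.46), an exon of Glb1l 15 kb upstream (555 counts, ratio 2.07, 1.90 to 2.25), and the TSSs of Cnppd1 and Retreg2 50 kb away (528 counts, ratio 3.47, 3.18 to 3.78). Its highest ratio lay at 510 kb in Ttll4 (33 counts, ratio 7.45). Atg2a, a lipid transfer protein gene, had 24, and 7 of its partner bins held a TSS, among them that of Men1 at 90 kb (91 counts, ratio 2.67). Wipi1, whose product binds phosphatidylinositol 3-phosphate, had 16 interactions, none within 100 kb. Its highest count was at the TSS of the G protein gene Gna13 at 250 kb (99 counts, ratio 3.86), and its highest ratio at 345 kb in Rgs9 (26 counts, ratio 5.83). Atg2b had 11 at a bin shared with Gskip. Atg9b had 2 at a bin shared with Abcb8, both with a TSS. These were that of Rheb, the GTPase that activates mTORC1, 450 kb upstream (22 counts, ratio 2.97), and that of Nupl2 230 kb downstream (33 counts, ratio 3.42). Wipi2 had an intergenic contact at 540 kb (20 counts, ratio 4.37).

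The conjugation and cleavage genes held 295 of the 766 interactions over 10 members, with a median of 15.5 and a median distance of 300 kb. Atg16l1, which places the conjugation enzyme complex on the membrane, had the most of any member, 78, and stood at rank 125 of the 20720 genes (chr1:87756013-87792428, plus strand). Its contacts were even on both sides, with 39 upstream and 39 downstream. Downstream they followed the bodies of Dgkd, a diacylglycerol kinase gene (13 bins, 100 to 185 kb), Usp40 (8 bins, 190 to 235 kb) and the Ugt1a glucuronosyltransferase cluster (8 bins, 320 to 400 kb). Upstream they followed Inpp5d, the gene of the lipid phosphatase SHIP1, with 4 bins inside the gene at 55 to 125 kb, then Ngef, and then Gigyf2, a translational repressor gene, with 12 bins at 305 to 400 kb. The highest ratio of Atg16l1 was beside Gigyf2, at 300 kb (73 counts, ratio 7.59), and 10 of its 12 ratios of at least 4 lay between 265 and 340 kb upstream.

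Atg5, the partner of Atg12 in the conjugate, had 67 interactions and, at 610 kb, the longest median distance of the 10 members with at least 30 interactions (chr10:44268358-44364291, plus strand). Downstream of the promoter bin lay 54 of them, and 53 of the 67 partner bins were intergenic. Only 4 other gene starts lay within 500 kb. The contacts passed Prdm1, the gene of the repressor Blimp-1, whose exon at 180 kb had 45 counts (ratio 2.97), and ran through the gene-poor interval up to Prep, a prolyl endopeptidase gene. Near the far end of this interval stood the highest ratio of any member, at 755 kb (chr10:45020001-45025000), with 68 counts against 4.28 expected (ratio 15.9, 12.3 to 20.1, false discovery rate 1.58e-54), 44.7 kb from the Prep TSS. Its neighbours at 735 and 790 kb had 36 and 34 counts (ratios 9.17 and 10.4), and the Prep TSS bin itself, at 800 kb, had 48 (ratio 7.29). In contrast, the bin 10 kb upstream of Atg5 had 474 counts at a ratio of 3.23 (2.95 to 3.54), so the most counted and the most enriched contacts of Atg5 were different bins. Atg5 gave 30 of the 166 member interactions at a ratio of 4 or more. Without Atg5, the intergenic share of all member partners was 23.3%.

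Atg3, the enzyme that transfers Atg8 proteins to phosphatidylethanolamine, had 54 interactions, 42 upstream and 12 downstream, at a bin shared with Slc35a5 (chr16:45158785-45188538, plus strand). A block of 16 bins at 375 to 460 kb covered Nepro, Gtpbp8 and Cd200r1, an inhibitory receptor gene of myeloid cells. Within it, the Nepro exon bins at 430 and 425 kb had 97 and 62 counts (ratios 11.4 and 8.85, intervals 9.23 to 13.9 and 6.78 to 11.3). The TSS bins of Nepro, Gtpbp8 and Cd200r1 had 108, 111 and 111 counts (ratios 8.06, 7.75 and 5.28). Bins of the related genes Cd200r4, Cd200r2 and Cd200r3 followed at 185 to 335 kb with lower ratios of 2.05 to 4.62. Among the contacts of Atg3, the bins 10 and 15 kb inside the gene had higher counts than these (402 and 201). Atg12, the ubiquitin-like protein of the conjugate, had 31 interactions at a bin shared with Ap3s1 (chromosome 18). Of these, 25 lay downstream, including the TSSs of Eif1a and Tmed7 at 145 kb (185 counts, ratio 3.91) and of Ticam2, an adaptor gene of Toll-like receptor 4, at 170 kb (90 counts, ratio 2.79). Its highest ratio was intergenic, at 520 kb near Trim36 (40 counts against 3.74 expected, ratio 10.7, 7.63 to 14.5).

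**Figure D3:**
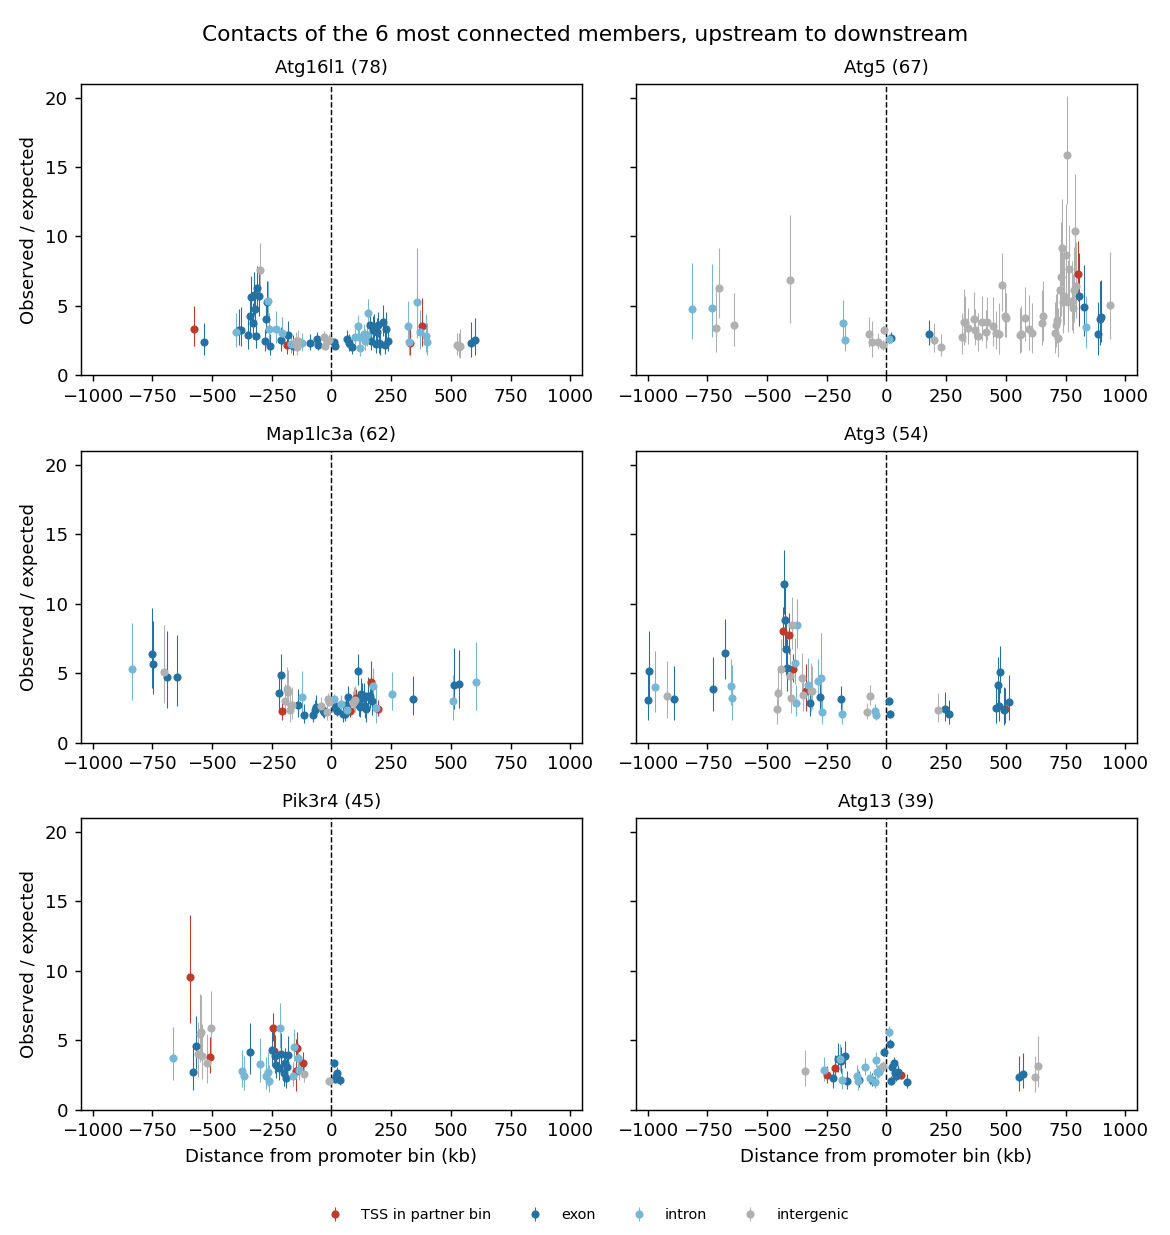
Each panel plots the listed interactions of a member by signed distance from its promoter bin (kb, negative upstream) and ratio of observed to expected, with exact Poisson 95% intervals as lines and the partner class as colour. Atg5 is high at 725 to 805 kb downstream and Atg3 at 375 to 435 kb upstream, whereas the contacts of Atg13 lie mostly within 260 kb and at ratios up to 5.61.

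The other conjugation and cleavage genes had fewer contacts. Atg16l2, a relative of Atg16l1, had 16, of which 9 were intergenic and 13 lay 210 to 435 kb downstream around Fchsd2, P2ry2 and P2ry6. Atg7, the activating enzyme of the system, had 13, and 9 of these fell within the first 55 kb of its own gene, with 53 to 202 counts and ratios of 2.12 to 3.29. Another reached an exon bin of Pparg, the nuclear receptor gene, 845 kb downstream (14 counts, ratio 5.12). The proteases that prepare Atg8 proteins varied. Atg4b had 15 at a bin shared with Thap4 (13 upstream). Atg4c had 12 (all upstream, with 84 counts at the Usp1 TSS), and Atg4d had 4 (all downstream). Atg10, the enzyme that joins Atg12 to Atg5, had 5.

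The Atg8 proteins, which coat the autophagosome membrane and bind cargo receptors, had the highest median of the 6 roles, 22 interactions over 5 genes. Map1lc3a, the gene of LC3A, had 62, 26 upstream and 36 downstream (chr2:155276297-155278073, plus strand). Its partners covered Pigu (11 bins) and Ncoa6 (14 bins), a nuclear receptor coactivator gene, downstream, and Itch (6 bins), a ubiquitin ligase gene, upstream. The TSS bin of Trp53inp2, whose product binds Atg8 proteins and promotes autophagy, lay 105 kb downstream with 122 counts (ratio 3.22), and the next bin had 90 (ratio 5.17). Gabarap had 35 (chr11:69991143-69994951, plus strand), in the densest surroundings of any member, with 62 other gene starts within 500 kb, and 8 of its partner bins held a TSS. These included the translation factor genes Eif5a at 75 kb (135 counts, ratio 2.56) and Eif4a1 at 320 kb (85 counts, ratio 2.64), and its highest ratio lay at 965 kb in Nup88 (18 counts, ratio 6.26).

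Map1lc3b, the gene of LC3B, had 22 interactions (chr8:121590361-121598760, plus strand). The bin 10 kb upstream had 484 counts (ratio 2.62, 2.39 to 2.86). Bins at 840 and 860 kb upstream had 20 and 18 counts (ratios 4.53 and 4.91), and that at 840 kb held an exon of Irf8, a transcription factor gene of the myeloid lineage. All 22 partner bins lie in Gm20388, an annotated readthrough locus, and 9 of them in no other protein-coding gene. The intron calls of those 9 depend on that annotation. Gabarapl1 had 11 (chr6:129533160-129542346, plus strand). Its contacts crossed the lectin receptor genes Clec12a, Clec12b and Clec1b upstream, beginning at 130 kb. The highest ratios in these genes were 2.22, 2.11 and 2.77. A Klra3 exon 790 kb downstream had 12 counts against 1.22 expected (ratio 9.85, 5.09 to 17.2). Genes of the Klra family are closely related copies, so read placement there is uncertain. Gabarapl2 had 9, all within 500 kb and at ratios of 2.11 to 3.41, the best-read in its own gene (354 counts). Within the family, median distances were 132.5 kb for Map1lc3a, 265 kb for Map1lc3b, 270 kb for Gabarap, 160 kb for Gabarapl1 and 75 kb for Gabarapl2.

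**Figure D4:**
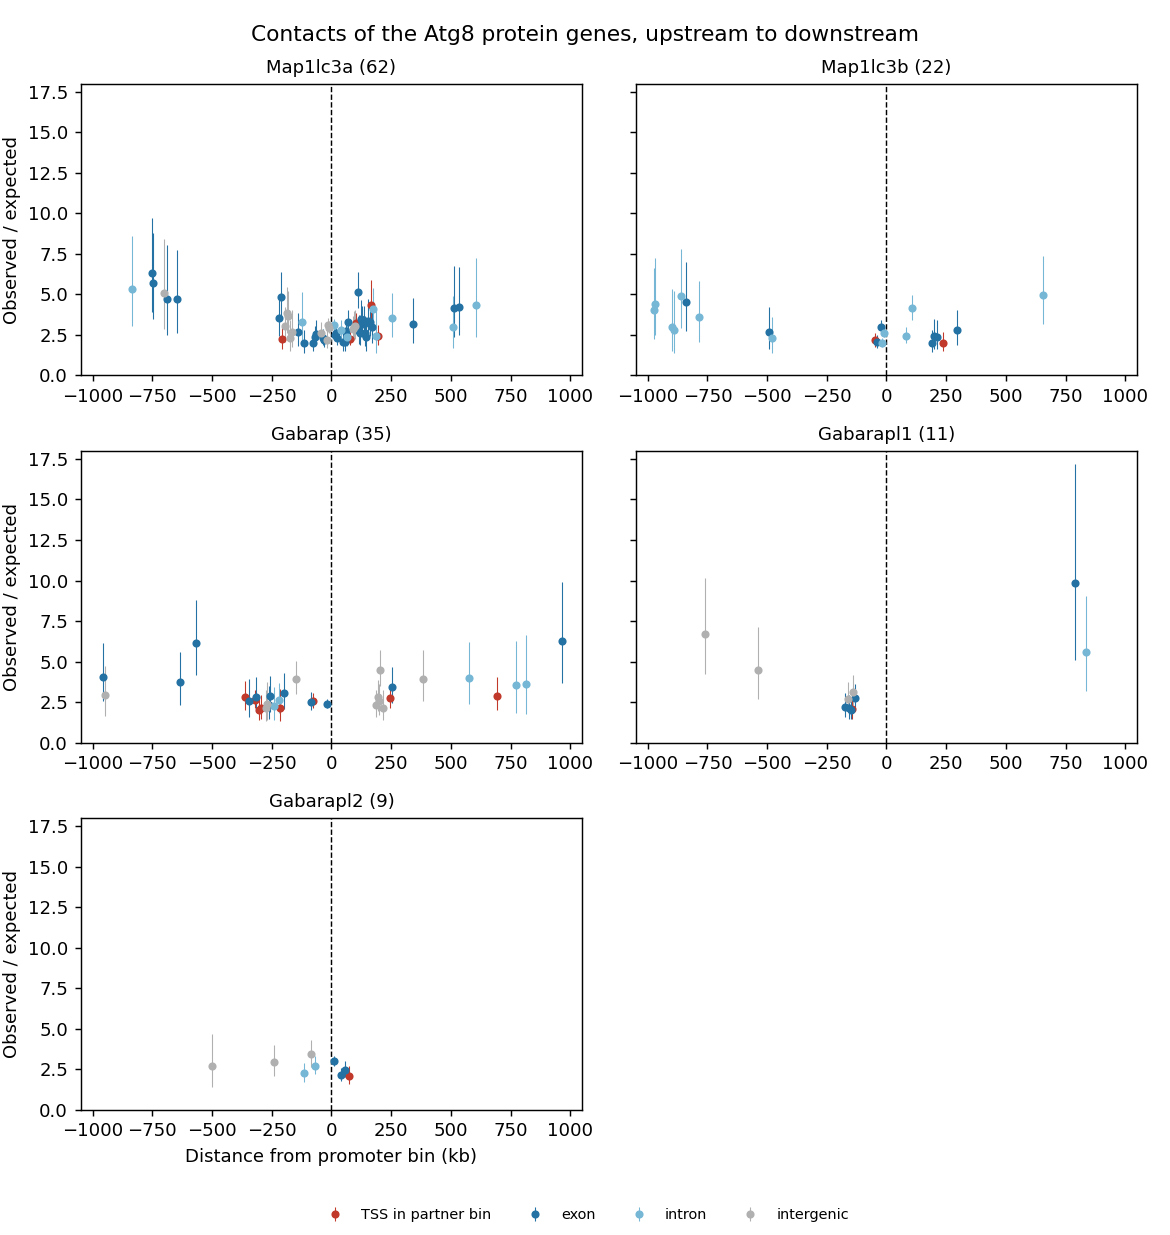
Each panel plots the listed interactions of an Atg8 protein gene by signed distance from its promoter bin (kb, negative upstream) and ratio of observed to expected, with exact Poisson 95% intervals as lines and the partner class as colour. Of the 62 contacts of Map1lc3a, 50 lie within 220 kb of the promoter and 10 beyond 500 kb, and the 9 of Gabarapl2 stay at ratios of 3.41 or less.

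The 4 cargo receptors had 11 to 33 interactions with a median of 19 and a median distance of 125 kb. Tax1bp1 led with 33 (chr6:52713729-52766780, plus strand). It had an unbroken row of intergenic bins from 10 to 55 kb upstream, of which that at 30 kb had 281 counts (ratio 4.92), then bins in Hibadh at 70 to 90 kb upstream, and 10 bins in Jazf1, a zinc finger protein gene, at 95 to 210 kb downstream. Nbr1 had 22, at 2 promoter bins, of which the upstream bin also holds the Brca1 TSS. In 7 of the 22 the partner bin held a TSS, and a partner bin reached from both promoter bins counts for each. The bin with the TSSs of Rnd2 and Vat1 had 237 counts from the shared promoter bin at 85 kb (ratio 3.74). From the other promoter bin it had 76 (ratio 2.54). The TSS bin of Grn, the gene of the lysosomal protein progranulin, was likewise reached from both promoter bins. It lay 880 kb from the shared bin (20 counts, ratio 2.84) and 875 kb from the other (16 counts, ratio 3.67). Optn had 16, of which 14 lay over 500 kb away and 10 had a ratio of at least 4, with a median distance of 812.5 kb. Most were upstream, near Cdc123, Nudt5, Sec61a2 and Upf2, and the Cdc123 exon bin at 780 kb had 46 counts against 5.22 expected (ratio 8.81, 6.45 to 11.8). Sqstm1, the gene of p62, had 11, with none over 230 kb, none at a TSS and ratios of 2.01 to 3.66.

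What the partner bins hold was compared with all promoter ends. Of the 766 partners, 89 (11.6%, 9.54 to 14.1%) held a TSS of a protein-coding gene, 37.6% an exon, 22.6% an intron and 28.2% neither. Over all 159206 promoter ends these shares were 13.7, 33.0, 19.6 and 33.7%. Bins mirrored to the opposite side of the member promoters held a TSS in 89 of 766 cases as well (11.6%), against 10.0% over all promoter ends. A partner with a TSS was found for 30 of the 36 members, against 70.3% of the 13093 genes with an interaction, whose median was 7 interactions. Partners in the member's own gene body were 50 (6.53%, against 8.81% over all genes), at 18 members, against 29.9% of genes with an interaction. No gene start lay between promoter and partner in 18.1% of member interactions, against 26.1% of all, and the median was 2 in both. Of 26 members with at least 10 interactions, 2 had at least 90% on the same side. The same was not counted over all genes, so whether this is few or many is unknown. The PU.1 core lay in 25.7% of partner bins against 29.0% of mirrored bins, AP-1 in 79.7% against 77.9%, the E-box in 47.3% against 46.9%, the TFE element in 2.77% against 3.29%, the antioxidant element in 77.5% against 78.8% and the NRF1 site in 3.29% (25 bins) against 4.73% (36 bins). None of these differences was tested.

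Regulators, fusion factors and receptors outside the 36 were counted in the same way, over 40 of 42 listed genes (Tfe3 and Wdr45 lie on the X chromosome and were not analysed here). An interaction was found at 39 of 40 (97.5%, 87.1 to 99.6%), with a median of 11.5. Well-connected examples were the Beclin 1 inhibitor gene Bcl2 (63), the mTORC1 scaffold gene Rptor (51) and Tecpr1 (44). The kinase gene of mTORC1, Mtor, had 15, and Pink1, a kinase gene of mitophagy, had 38. Among the TFE factors, Tfeb, the regulator of lysosomal and autophagy genes, had none and Mitf had 1. The core machinery (median 14.5) and these genes (median 11.5) both lay above the median of 2 over all genes, and the difference between them was not tested. Both lists were chosen with earlier results of these data known, so neither is a random draw of genes.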

How the data were processed

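H3K4me3 HiChIP was run on 2 IL-4-treated and 2 basal BMDM samples, grouped by their titles, and replicates are biological per the labels. By the study's methods and the submitters' processing notes (Bowtie2, bedtools, mm10), the authors called interactions with MAPS at 5 kb on the merged reads of the 4 samples, anchored on merged H3K4me3 peaks. The authors' deposited list gives per bin pair the observed count of read pairs, the expected count of their model and a false discovery rate (an adjusted p-value, at most 0.01). It also gives, as deposited by the authors, each cluster's size and its −log10 p, and the p was not used. No sample is resolved in it, so a ratio depends on how well that model holds at each distance, and no test between samples was possible. Intervals cover counting error only.

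Bins were annotated with the basic protein-coding transcripts of GENCODE M21 (GRCm38) in the order TSS, exon, intron, intergenic. Distances run between bin starts, and upstream and downstream follow the strand of the member. Members and gene lists were chosen with earlier results of these data known. The genes described in full are, by rule, the 2 members with the most interactions in each role, the 12 with the most of all, the 10 interactions highest by ratio and by count, and all 5 Atg8 genes. Further partners were picked as examples once their values were known. A few items are not reported here. Alternatives were a false discovery rate under 1e-06, at least 10 counts, ratios of at least 4, 1 interaction per cluster, clusters of 1 bin pair left out, a TSS within 2500 bp, the outermost TSS only and shared promoter bins left out. Leaving out the body of Gm20388 was added after the data were seen. Counting was tested on simulated data. Python 3.11.15, numpy 2.4.6, pandas 2.3.3, scipy 1.17.1 and matplotlib 3.10.9 were used.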

Additional observations from a re-analysis of the deposited data

How the results depend on the processing

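No paired analysis was possible because the deposited list pools all 4 samples. Members with an interaction numbered 36 as deposited and at least 29 under the alternatives. The share of all protein-coding genes (63.2%) was computed for the deposited list only. How the members stand beside all genes under the alternatives is therefore unknown. At a false discovery rate under 1e-06, 430 interactions were left, with a median of 7.5 per member, 130 kb, a ratio of 3.15 and 42.8% exon partners. At ratios of at least 4, 166 were left, with medians of 2 per member, 555 kb and 4.93, and promoter and intergenic shares of 7.83% and 33.7%. With 1 interaction per cluster, 206 were left, with medians of 4.5 per member, 340 kb and 3.62, and exon and intron shares of 32.5% and 28.2%. The member interactions lay in 260 clusters, so the interaction kept for a cluster was not always a member interaction. When a TSS up to 2500 bp outside the bin counted, the promoter, exon and intron shares were 25%, 31.8% and 18%, and with only the outermost TSS the promoter share was 8.91%. The wider start raised 8 members by over 1.5 times: Rb1cc1 (20, against 7), Atg2b (34, against 11), Gabarapl1 (22, against 11), Ambra1 (5, against 1), Atg101 (23, against 14), Atg4c (20, against 12), Atg12 (48, against 31) and Gabarapl2 (15, against 9), and the outermost start moved Atg14 (1, against 9) and Ambra1 (0, against 1). Requiring 10 counts, or leaving out clusters of 1 bin pair, shared promoter bins or Gm20388, kept the partner shares and the medians of distance and ratio within their intervals, although without shared promoter bins 7 members had no interaction. Atg16l1 led throughout except at ratios of at least 4 (Atg5, 30) and with 1 interaction per cluster (Atg5, 17). Low expected counts limit the precision of single far contacts: the Klra3 contact of Gabarapl1 rests on 12 read pairs.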
